A study of Mus musculus with 32 samples.

Results

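The keratins of luminal and basal epithelium described here are 10 genes, Krt8, Krt18, Krt19, Krt7, Krt5, Krt14, Krt17, Krt15, Krt6a and Krt23, taken by name out of 33654 gene rows with a symbol in each of 4 expression tables. RNA was sequenced from mouse cells of the MMTV-PyMT model, in which a viral oncogene under a mammary tumor virus promoter gives rise to mammary tumors. Tumor cells, labelled as breast cancer cells of an MMTV-PyMT line, gave 3 libraries 2 weeks, 4 libraries 3 weeks and 4 libraries 4 weeks into tumor development, and CD8 T cells gave 3 libraries for each of these weeks. In a knockdown set, tumor cells and CD8 T cells came from xenografts of cells with a control hairpin RNA (shCTRL, n = 3 each) or a hairpin RNA against Mogat1 (shMogat1, n = 3 each), an enzyme of glycerolipid synthesis. The labels give neither the mouse strain, nor the animals' age, nor how the cells were purified, nor whether replicates came from separate animals. The p-values therefore measure the spread between these libraries, which may be technical.

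Keratins are the intermediate filament proteins of epithelial cells. A filament needs a type I chain and a type II chain in equal amounts, so the genes are used in pairs. In the mammary gland, Krt8 (type II) and Krt18 (type I) pair in the luminal cells that line the ducts, joined by Krt19 (type I) and Krt7 (type II), while Krt5 (type II) and Krt14 (type I) pair in the basal layer of myoepithelial cells and their progenitors. Krt17 and Krt6a appear in stressed, healing or appendage epithelium, Krt15 marks basal cells of stratified epithelium and hair follicle stem cells, and Krt23 is a type I keratin of glandular epithelia.

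In the GENCODE M21 annotation (GRCm38), the 10 genes lie in the mouse's pair of keratin clusters. On chromosome 11 are the type I genes Krt23 (99477974 to 99493137), Krt15 (100131758 to 100135928), Krt19 (100140810 to 100148665), Krt14 (100203162 to 100207548) and Krt17 (100256217 to 100261029). On chromosome 15 are the type II genes Krt7 (101411043 to 101430313), Krt6a (101689910 to 101694307), Krt5 (101707070 to 101712898) and Krt8 (101996698 to 102004482), and beside them the type I gene Krt18 (102028180 to 102032027). Krt8 and Krt18 are thus neighbours, 23697 bases apart, and are read in opposite directions. Some members have near copies among annotated transcripts that the counting could confuse with them. The processed pseudogene Krt8-ps matches Krt8 at 98.6% identity over 941 bases and Gm5200 matches Krt18 at 90.5% over 1267 bases. Krt6b matches Krt6a at 92.6% over 2184 bases, and Krt14 matches Krt17 at 91.0% over 756 bases. The 2 pseudogenes were not analysed here, and how shared reads were assigned is not given in the sources used here.

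RefSeq promoter windows, from 250 bases before to 50 after the start site on GRCm38.p6, were at hand for 6 of the 10 members. The windows of 4 genes are shown, since their RNA levels carried the time course: the pair Krt8 and Krt18, which rose together, Krt5, which fell, and Krt23, which rose late. Capitals mark matches to TATAAA on either strand. RefSeq's start site can differ from the end of the GENCODE gene, which is the longest extent of its transcripts.
Krt8, chr15:102004293-102004592, minus strand: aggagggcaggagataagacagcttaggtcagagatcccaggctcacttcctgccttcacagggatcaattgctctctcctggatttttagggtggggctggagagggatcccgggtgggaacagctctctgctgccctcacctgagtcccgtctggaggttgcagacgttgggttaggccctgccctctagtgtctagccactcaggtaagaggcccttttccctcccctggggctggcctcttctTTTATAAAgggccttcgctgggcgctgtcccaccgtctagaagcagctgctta
Krt18, chr15:102027966-102028265, plus strand: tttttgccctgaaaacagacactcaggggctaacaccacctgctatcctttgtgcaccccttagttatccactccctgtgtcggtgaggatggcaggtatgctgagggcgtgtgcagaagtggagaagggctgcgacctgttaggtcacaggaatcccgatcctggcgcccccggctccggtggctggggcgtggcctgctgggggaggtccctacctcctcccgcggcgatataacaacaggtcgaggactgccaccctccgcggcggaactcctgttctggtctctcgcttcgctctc
Krt5, chr15:101712856-101713155, minus strand: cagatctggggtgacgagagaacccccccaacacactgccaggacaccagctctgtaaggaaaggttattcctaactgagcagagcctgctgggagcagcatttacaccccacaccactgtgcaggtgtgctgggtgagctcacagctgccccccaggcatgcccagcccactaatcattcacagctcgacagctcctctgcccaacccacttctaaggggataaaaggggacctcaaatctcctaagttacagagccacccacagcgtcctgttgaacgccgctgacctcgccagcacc
Krt23, chr11:99493071-99493370, minus strand: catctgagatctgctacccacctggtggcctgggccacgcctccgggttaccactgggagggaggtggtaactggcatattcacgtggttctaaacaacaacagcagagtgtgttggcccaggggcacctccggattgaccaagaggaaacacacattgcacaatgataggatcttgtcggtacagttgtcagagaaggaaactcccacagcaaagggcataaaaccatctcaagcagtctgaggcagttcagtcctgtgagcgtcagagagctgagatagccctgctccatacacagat
The windows of Krt8 and Krt18, which rose together, differed in CpG pairs. The Krt18 window holds 17 CpG pairs at 61.3% G + C, against 6 CpG pairs at 58.0% in Krt8, 6 at 57.7% in Krt5 and 6 at 53.0% in Krt23. That of Krt14, which fell as Krt5 did and is not shown, holds 5 at 48.3%. The Krt14 window, 100205981 to 100206280, lies inside the GENCODE gene and away from its start, so that it is not a like match for that of Krt5. Over all 32851 windows the median is 7 CpG pairs and 52.7% G + C. The letters TATAAA stand in 13.6% of all windows and in 1 of the 6 members' windows, that of Krt8, where matches on both strands overlap at the start site. The GC box GGGCGG stands in 35.7% of all windows and, among the 6, in that of Krt7, which also lies inside its GENCODE gene. The AP-1 motif TGANTCA (7.81% of windows) and the grainyhead motif AACCGGTT (0.146%) matched none of the 6.

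All values are TPM, read numbers scaled by gene length and by the library's total, so that levels of different genes can be set side by side. The 4 tables were scaled apart from each other, and tests were run only within a table. A fold change below is a difference of mean log2(TPM + 1), which understates the change of genes at few TPM. A gene was tested if it reached 1 TPM in at least 3 libraries of its table, and is said to have risen or fallen where limma's adjusted p is under 0.05. In bulk RNA, fewer cells of a type and less RNA per cell cannot be told apart. Read numbers recovered from the steps between TPM values show the depth: Krt8 at week 2 stands on 8194 to 12456 reads a library, Krt5 on 730 to 775 at week 2 and 25 to 30 at week 4. Libraries of an arm of the knockdown set were far more alike than those of a week: the median gene's SD of log2(TPM + 1) was 0.057 and 0.062 in its tumor arms against 0.146 to 0.292 in the tumor time course.

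Over the time course the luminal pair rose, the basal pair fell, and the members parted within both classes. From week 2 to week 4, 4 of the 10 members rose (Krt8, Krt18, Krt17 and Krt23), 4 fell (Krt19, Krt5, Krt14 and Krt6a) and 2 did not pass the test (Krt7 and Krt15). In the same comparison 29.2% of the 14770 tested genes rose and 17.1% fell, so that many genes moved along with the keratins. The members' median log2 fold change was -0.06, beside 0.11 over all tested genes. After median-of-ratios rescaling, which takes the median of all genes to -0.01, 3544 genes rose and 3425 fell in place of 4318 and 2525, and the members' counts stayed at 4 and 4.

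Krt8 and Krt18 were the most abundant keratins in every library of the time course. Krt8 measured 335, 326 and 437 TPM at week 2, 558, 672, 479 and 589 TPM at week 3, and 688, 754, 571 and 632 TPM at week 4. Every library of weeks 3 and 4 lay above every library of week 2, while weeks 3 and 4 overlapped. Krt8 rose by 0.86 on the log2 scale from week 2 to week 4 (SE 0.145, limma adjusted p = 0.000797). Krt18, its filament partner, measured 281, 311 and 408 TPM at week 2, 480, 523, 402 and 530 TPM at week 3, and 547, 612, 512 and 609 TPM at week 4. The highest library of week 2 overlapped with week 3 but not with week 4. Krt18 rose by 0.79 (SE 0.14, limma adjusted p = 0.00115). The partners kept their proportion: the Krt18 to Krt8 ratio of TPM was 0.91 ± 0.06 (SD, n = 3) at week 2, 0.84 ± 0.05 (n = 4) at week 3 and 0.87 ± 0.08 (n = 4) at week 4.

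The other luminal keratins did not move with the pair. Krt19, a small type I keratin without a tail domain, measured 26.6, 37.5 and 17.3 TPM at week 2, 3.83, 8.97, 8.31 and 16.4 TPM at week 3, and 2.02, 6.29, 4.06 and 4.27 TPM at week 4. All libraries of weeks 3 and 4 lay below those of week 2, and weeks 3 and 4 overlapped. Krt19 fell by 2.45 on the log2 scale from week 2 to week 4 (SE 0.42, limma adjusted p = 0.00082), opposite in direction to Krt8 and Krt18. Krt7, a type II keratin of simple ducts, measured 43.5, 50.7 and 69.3 TPM at week 2, 65.2, 78.4, 90.3 and 79.2 TPM at week 3, and 49.0, 69.9, 43.8 and 58.0 TPM at week 4. Weeks 2 and 4 overlapped, with a log2 fold change of 0.02 (SE 0.19, limma adjusted p = 0.93), and week 3 had the highest mean.

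**Figure D1:**
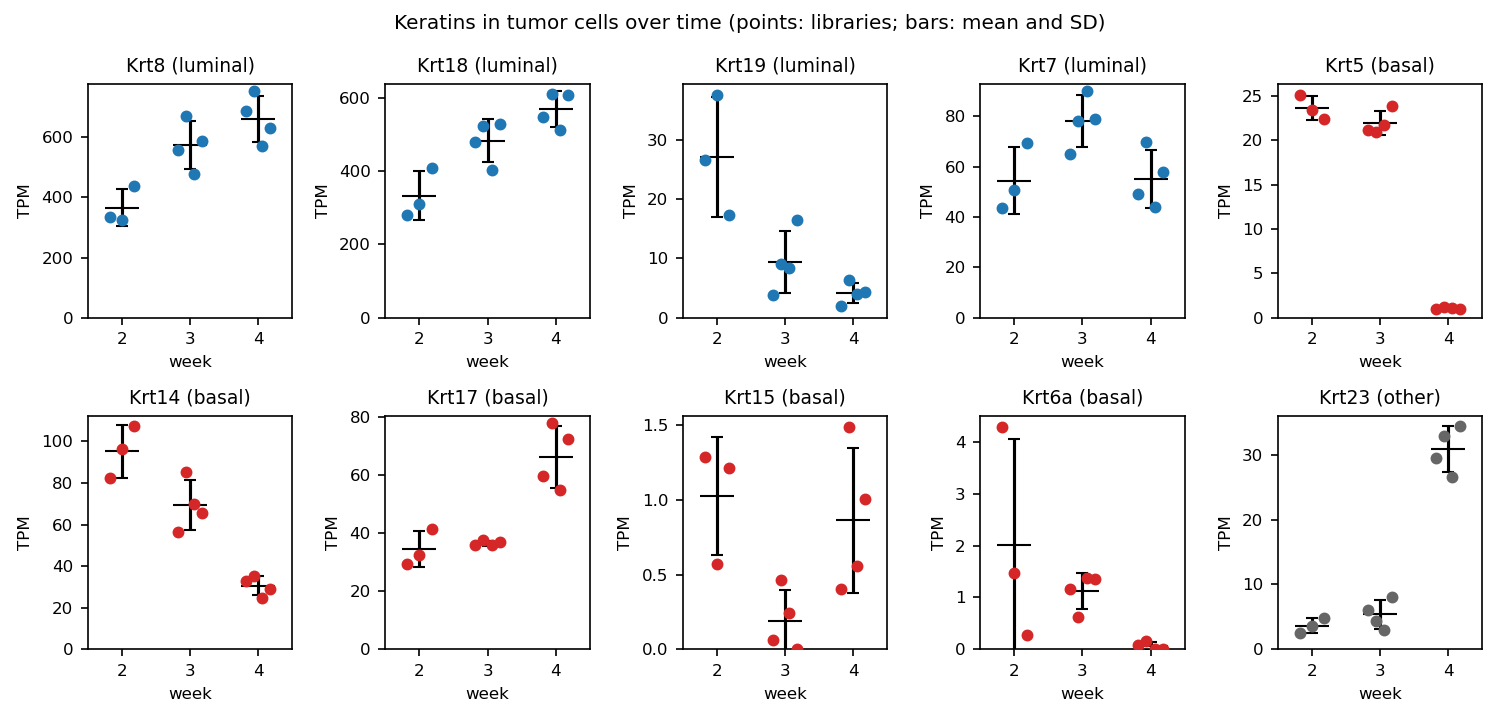
TPM of each keratin (vertical axes, from 0, a scale of its own per panel) in tumor cells by week (horizontal axes). Points are libraries, the bars are the mean and SD, cut at 0, with luminal members in blue, basal members in red and Krt23 in grey. Krt5 stood at 21.0 TPM or more in every library of weeks 2 and 3 and at 1.21 TPM or less in every library of week 4, where Krt23 stood at 26.6 TPM or more.

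The basal pair fell by week 4. Krt5 measured 25.1, 23.4 and 22.4 TPM at week 2, 21.2, 21.0, 21.7 and 23.9 TPM at week 3, and 0.988, 1.21, 1.09 and 0.986 TPM at week 4. Weeks 2 and 3 overlapped, and week 4 lay far below both. Krt5 fell by 3.57 on the log2 scale from week 2 to week 4 (SE 0.10, limma adjusted p = 1.98e-08). Krt14, its partner, measured 82.2, 96.3 and 108 TPM at week 2, 56.6, 85.2, 69.8 and 65.6 TPM at week 3, and 32.9, 35.1, 24.7 and 29.2 TPM at week 4. Week 4 lay below every earlier library, and week 3 overlapped with week 2. Krt14 fell by 1.62 (SE 0.16, limma adjusted p = 2.68e-05). The Krt14 to Krt5 ratio, 4.06 ± 0.77 (SD, n = 3) at week 2 and 3.17 ± 0.64 (n = 4) at week 3, was 28.6 ± 4.5 (n = 4) at week 4.

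The remaining basal keratins went separate ways. Krt17, a type I keratin of hair follicles and wound edges, measured 29.3, 32.6 and 41.3 TPM at week 2, 35.8, 37.6, 35.8 and 36.7 TPM at week 3, and 59.5, 77.8, 54.9 and 72.2 TPM at week 4. It stood apart only at week 4, above every earlier library, and rose by 0.92 on the log2 scale from week 2 (SE 0.14, limma adjusted p = 0.000402). Krt6a, a type II keratin of wounded epithelium, measured 4.29, 1.46 and 0.280 TPM at week 2, 1.16, 0.615, 1.37 and 1.35 TPM at week 3, and 0.0767, 0.156, 0 and 0 TPM at week 4. Its week 2 libraries spread over a wide range and its week 4 libraries stood on 0 to 4 reads, so that it passed the filter only through the earlier weeks. Krt6a fell by 1.27 (SE 0.38, limma adjusted p = 0.0174), and with array weights, which let noisy libraries count less, it did not pass (limma adjusted p = 0.0573). Krt15 stayed at 1.49 TPM or less in every tumor library, on 33 reads at most in the time course, and its week 2 and week 4 libraries overlapped (log2 fold change -0.14, SE 0.25, limma adjusted p = 0.673).

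Krt23 rose the most of all members. It measured 2.45, 3.56 and 4.86 TPM at week 2, 6.08, 4.32, 2.95 and 8.07 TPM at week 3, and 29.5, 33.0, 26.6 and 34.4 TPM at week 4. All 4 libraries of week 4 lay above all earlier ones, and weeks 2 and 3 overlapped. Between weeks 2 and 4 it rose by 2.81 on the log2 scale (SE 0.27, limma adjusted p = 2.25e-05). Krt8, Krt18, Krt19, Krt5, Krt14, Krt17 and Krt23 each passed the test in the same direction under all 20 alternative settings of this comparison.

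The timing differed between members. From week 3 to week 4, Krt17 (log2 fold change 0.83, SE 0.13, limma adjusted p = 0.00235) and Krt23 (2.39, SE 0.25, adjusted p = 0.00025) rose. Krt5 (-3.47, SE 0.10, limma adjusted p = 1.17e-08) and Krt14 (-1.16, SE 0.15, adjusted p = 0.000708) fell. These were 2 of 10 members in each direction, in a step in which 5.53% of tested genes rose and 8.19% fell. Quantile normalization gave 1203 genes that rose and 1135 that fell in place of 817 and 1209. Without week 2 replicate 1, or without week 2 replicate 3, Krt7 and Krt6a also passed, which made 4 members lower. From week 2 to week 3, Krt8 (0.65, SE 0.145, limma adjusted p = 0.01) and Krt18 (0.55, SE 0.14, adjusted p = 0.0191) rose. Krt19 (-1.52, SE 0.42, limma adjusted p = 0.024) and Krt15 (-0.76, SE 0.25, adjusted p = 0.0445) fell. These were 2 of 10 members in each direction, beside 20.1% of tested genes that rose and 4.01% that fell. Krt15 stood at 0.462 TPM or less in every library of week 3. It thus passed the filter only through weeks 2 and 4, which favoured a fall, and it was called in 6 of the 18 alternative settings that tested it. After median-of-ratios rescaling 1952 genes rose and 1407 fell in place of 2967 and 593, and 0 members rose, while Krt14 joined those that fell (log2 fold change -0.63, limma adjusted p = 0.0233). The early calls hung on single libraries: 0 members passed in either direction without week 2 replicate 2. Without week 3 replicate 4, 1 rose and 1 fell, 0 fell without week 3 replicate 1 or without week 3 replicate 3, and 1 fell without week 2 replicate 3 or without week 4 replicate 4.

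**Figure D2:**
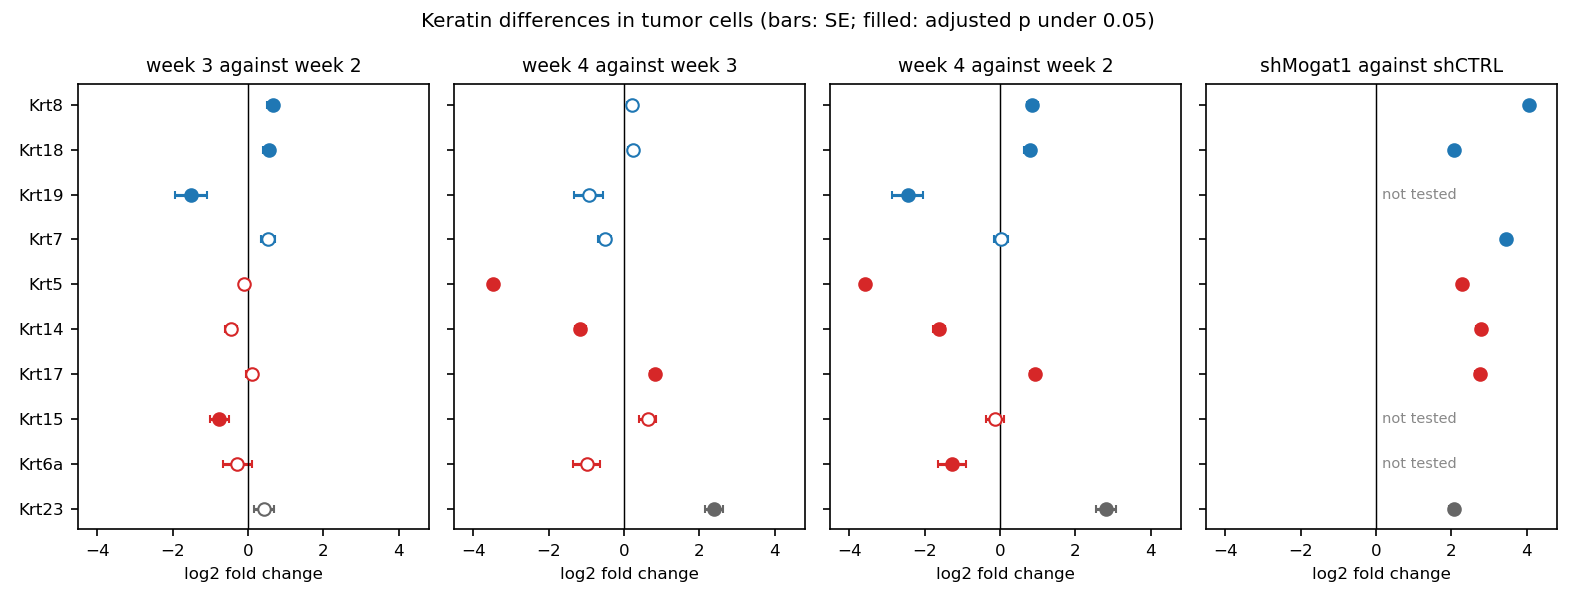
Differences of mean log2(TPM + 1) for the 10 keratins (rows) in 4 comparisons of tumor cells, with bars for the SE; blue marks luminal members, red basal members and grey Krt23, and filled points have a limma adjusted p under 0.05. Krt5 and Krt23 lie near 0 from week 2 to week 3 and far from 0, on opposite sides, from week 3 to week 4. All 7 members tested in the knockdown set lie to the right of 0, beside 34.6% of all tested genes called higher. For 5 of the 7 this follows from the filter, which they passed through the shMogat1 libraries alone.

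Summed over the members of a class, the balance shifted towards the luminal keratins. Krt8, Krt18, Krt19 and Krt7 together measured 781 ± 132 TPM (SD, n = 3) at week 2 and 1290 ± 128 TPM (n = 4) at week 4. Krt5, Krt14, Krt17, Krt15 and Krt6a together measured 156 ± 15.5 TPM and 98.5 ± 14.6 TPM. The luminal to basal ratio was 4.83, 4.70 and 5.39 at week 2, 9.64, 8.85, 7.60 and 9.52 at week 3, and 13.7, 12.5, 13.9 and 12.6 at week 4, and no 2 weeks overlapped. The sums of all 28 type I and all 26 type II keratins stayed close to each other, with a type I to type II ratio between 0.845 and 1.20 in all 11 libraries. Members made up 96.6% to 98.8% of all keratin TPM in these libraries.

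The genes whose time course lay nearest to Krt8 were Krt18 itself, at a root-mean-square difference of 0.10 on the log2 scale over 11 libraries, then Epcam (0.11), an adhesion protein of epithelial cells, Rell1 (0.12), Ccdc136 (0.12), Sqle (0.12) and Acat2 (0.14), of which Sqle and Acat2 act in sterol metabolism. Nearest to Krt18, after Krt8, were Epcam (0.10), Ccdc136 (0.12), Arhgef5 (0.12), F11r (0.12), a tight junction protein, and Ppargc1a (0.13). Ppargc1a averaged 0.317, 0.980 and 1.23 TPM at weeks 2, 3 and 4, and Ccdc136 2.48, 3.99 and 4.75 TPM. At such levels log2(TPM + 1) understates the change, so that their likeness to the pair is not one of fold change. The Krt8 to Epcam ratio of TPM stayed between 1.11 and 1.47 in all 11 libraries. Nearest to Krt5 were Prkg2 (0.36), Arhgap22 (0.37), Areg (0.41), a ligand of the EGF receptor, Msln (0.43), a surface protein of mesothelium, and AA467197 (0.50). Krt14 itself ranked 303 of 14769 in likeness to Krt5. Among the genes nearest to Krt14 were Snx10 (0.18), Isg20 (0.20), Cdr2 (0.22) and Ap1s2 (0.22). Areg, for instance, measured 172 ± 65.4 TPM (SD, n = 3) at week 2, 153 ± 49.1 TPM (n = 4) at week 3 and 13.3 ± 4.4 TPM (n = 4) at week 4, the same order of weeks as Krt5.

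Among partners of the keratin cytoskeleton, desmosome and plakin genes, which anchor keratin filaments at cell contacts, gave 7 of 13 tested that rose and 3 that fell from week 2 to week 4, with a median log2 fold change of 0.83. Evpl (envoplakin) rose by 1.85 (SE 0.14, limma adjusted p = 8.71e-06), while Pkp1, the plakophilin of stratified epithelium, fell by 2.83 (SE 0.29, adjusted p = 3.68e-05). Pkp1 stood at 0.529 TPM or less in every library of week 4, so that it passed the filter only through the earlier weeks, where it was high. Of 10 genes of hemidesmosomes and basement membrane adhesion, through which basal keratins are tied to the matrix, 4 rose and 3 fell (median 0.47). Itga6 rose by 1.64 (SE 0.12, limma adjusted p = 8.56e-06), Lamb3, a laminin chain, rose by 1.27 (SE 0.14, adjusted p = 4.51e-05), and Col17a1 fell by 0.83 (SE 0.22, adjusted p = 0.0107). Of 15 epithelial transcription factors, 12 rose and 1 fell (median 0.74). Trp63, the regulator of basal epithelium, rose by 0.71 (SE 0.19, limma adjusted p = 0.0106) while Krt5 and Krt14 fell. Of 10 tested other intermediate filament genes, 4 rose and 2 fell. Vim, the mesenchymal filament protein, measured 5968, 4912 and 2015 TPM at week 2 and 608, 729, 767 and 738 TPM at week 4, and fell by 2.46 (SE 0.34, limma adjusted p = 0.000207).

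Markers of other cells moved over the same weeks. The summed TPM of 15 epithelial markers without keratins was 1049 to 1519 at week 2 and 1913 to 2195 at week 4, and 12 of them rose. Between the same weeks, 8 T cell markers went from 96.8 to 326 TPM to 20.5 to 57.2 TPM (7 fell), 7 endothelial markers from 120 to 234 TPM to 33.9 to 49.7 TPM (5 fell), and 6 B and plasma cell markers from 38.0 to 312 TPM to 1.24 to 10.8 TPM (6 fell). Fibroblast markers (2129 to 7036 TPM, then 1972 to 6361 TPM, 1 of 8 fell) and macrophage markers (778 to 2942 TPM, then 528 to 1667 TPM, 1 of 9 fell) overlapped between the weeks. Of 8 contractile genes of myoepithelium, 1 of 5 tested rose, and their sum overlapped (38.4 to 61.3 TPM, then 36.7 to 81.6 TPM). Of 6 mesothelial markers only Msln was tested, and it fell from 11.4 to 26.8 TPM at week 2 to 0 in every library of week 4. Msln thus passed the filter only through the earlier weeks, where it was high. The part of these markers in the keratins' changes was not tested.

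Few other keratins were present. Of the 44 remaining keratin rows, 3 reached a mean of 10 TPM in a tumor group, and 35 of the other 41 stayed under 1 TPM in every tumor library. Krt79, of the sebaceous duct and hair canal, rose from 2.61, 2.65 and 3.23 TPM at week 2 to 13.4, 13.6, 9.68 and 15.1 TPM at week 4 (log2 fold change 1.85, SE 0.15, limma adjusted p = 1.14e-05). Krt16, the usual partner of Krt6a, fell from 13.5, 6.76 and 4.36 TPM to 0.993, 1.29, 0.428 and 0.881 TPM (-2.18, SE 0.40, limma adjusted p = 0.00124). Among 14 genes of differentiated epidermis and hair follicle, 4 were tested and 2 rose, Krt79 and Sbsn.

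In the knockdown set, the labels were checked first on the targeted gene. Mogat1 was listed at 0 in all 3 tumor libraries labelled shCTRL and measured 0.624, 0.146 and 0.531 TPM in the 3 labelled shMogat1, which goes against the labels at a level near the limit of detection. Directions below therefore compare libraries by their label. In the time course, Mogat1 measured 35.8 to 39.6 TPM in tumor cells of week 4, so that both arms of this set stood far below that level. The labelled cell type was also checked. Of 15 epithelial markers without keratins, 11 stayed under 1 TPM in every tumor library labelled shCTRL and 0 did so in those labelled shMogat1 (summed level 191.5 to 197.4 TPM and 203.8 to 225.1 TPM), and Epcam measured 0.653, 0.560 and 0.864 TPM against 28.4, 29.6 and 30.8 TPM. In the time course Epcam measured 249.2 TPM or more.

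In tumor cells, 7 of the 10 members passed the filter and all 7 were higher in the libraries labelled shMogat1. Krt8 and Krt18 reached 1 TPM in all 6 libraries, while the other 5 passed through the shMogat1 libraries alone, where they were high, so that their being called follows from the filter. Over all genes, these counts stood beside 34.6% of 12936 tested genes that were higher and 19.9% that were lower. The remaining members, Krt19, Krt15 and Krt6a, stayed at 1.34 TPM or less in every library of this table. After median-of-ratios rescaling 3124 genes were higher and 3758 lower in place of 4479 and 2573, and all 7 members were still called higher. Without any 1 of the shMogat1 libraries (replicate 1, 2 or 4), 2 members were called, since the other 5 no longer reached 1 TPM in 3 libraries and were not tested.

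The luminal pair was uneven in this set. Krt8 measured 1.57, 1.46 and 1.32 TPM in the libraries labelled shCTRL and 41.7, 36.4 and 40.8 TPM in those labelled shMogat1. The arms lay far apart, and the log2 fold change was 4.05 (SE 0.07, limma adjusted p = 1.51e-08). Krt18 measured 213, 199 and 198 TPM in shCTRL and 886, 851 and 844 TPM in shMogat1. It was abundant in both arms, with a log2 fold change of 2.08 (SE 0.03, limma adjusted p = 1.01e-08). The Krt18 to Krt8 ratio was 136, 136 and 150 in shCTRL and 21.2, 23.3 and 20.7 in shMogat1, where the time course had 0.779 to 0.965. The type I to type II ratio over all keratins was likewise 21.5 to 26.6 and 8.52 to 9.37, so that in this table the keratin RNA was mostly of type I. Krt18 accounted for most of the excess, and its read numbers, alone among the members, could not be recovered from the table.

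The other members of the knockdown set stood at low levels. Krt7 measured 0.255, 0.208 and 0.187 TPM in shCTRL and 12.9, 11.8 and 12.1 TPM in shMogat1 (log2 fold change 3.45, SE 0.09, limma adjusted p = 5.28e-08). Krt14 measured 0.509, 0.384 and 0.129 TPM and 8.26, 8.69 and 7.59 TPM (2.78, SE 0.13, limma adjusted p = 1.02e-06). Krt17 measured 0.0867, 0.212 and 0.0955 TPM and 5.70, 7.75 and 6.43 TPM (2.75, SE 0.13, limma adjusted p = 1.07e-06). In each of these the shCTRL libraries sat near 0 and no arm overlapped. Krt5 measured 0, 0 and 0.0677 TPM in shCTRL and 3.88, 4.03 and 3.96 TPM in shMogat1 (2.28, SE 0.11, limma adjusted p = 1.08e-06). Krt23 measured 0.0875, 0 and 0 TPM and 2.88, 3.65 and 3.41 TPM (2.06, SE 0.12, limma adjusted p = 4.63e-06). Both rested on almost no reads in shCTRL. From recovered reads, 326 against 2 for Krt5 gave a ratio of 175 (95% exact interval 48.05 to 1451). For Krt23, 190 against 2 gave a ratio of 102 (27.8 to 848). The intervals cover counting error only and take each read as an independent count. Recovered numbers in shCTRL were mostly even (2, 4 and 2 for Krt17). If reads were counted in pairs, the intervals are too narrow. Krt19 measured 0, 0.233 and 0 TPM against 0.303, 0.567 and 1.34 TPM, Krt15 measured 0.0783 to 0.259 TPM against 0.332 to 0.424 TPM, and Krt6a 0 to 0.0596 TPM against 0 to 0.267 TPM.

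**Figure D3:**
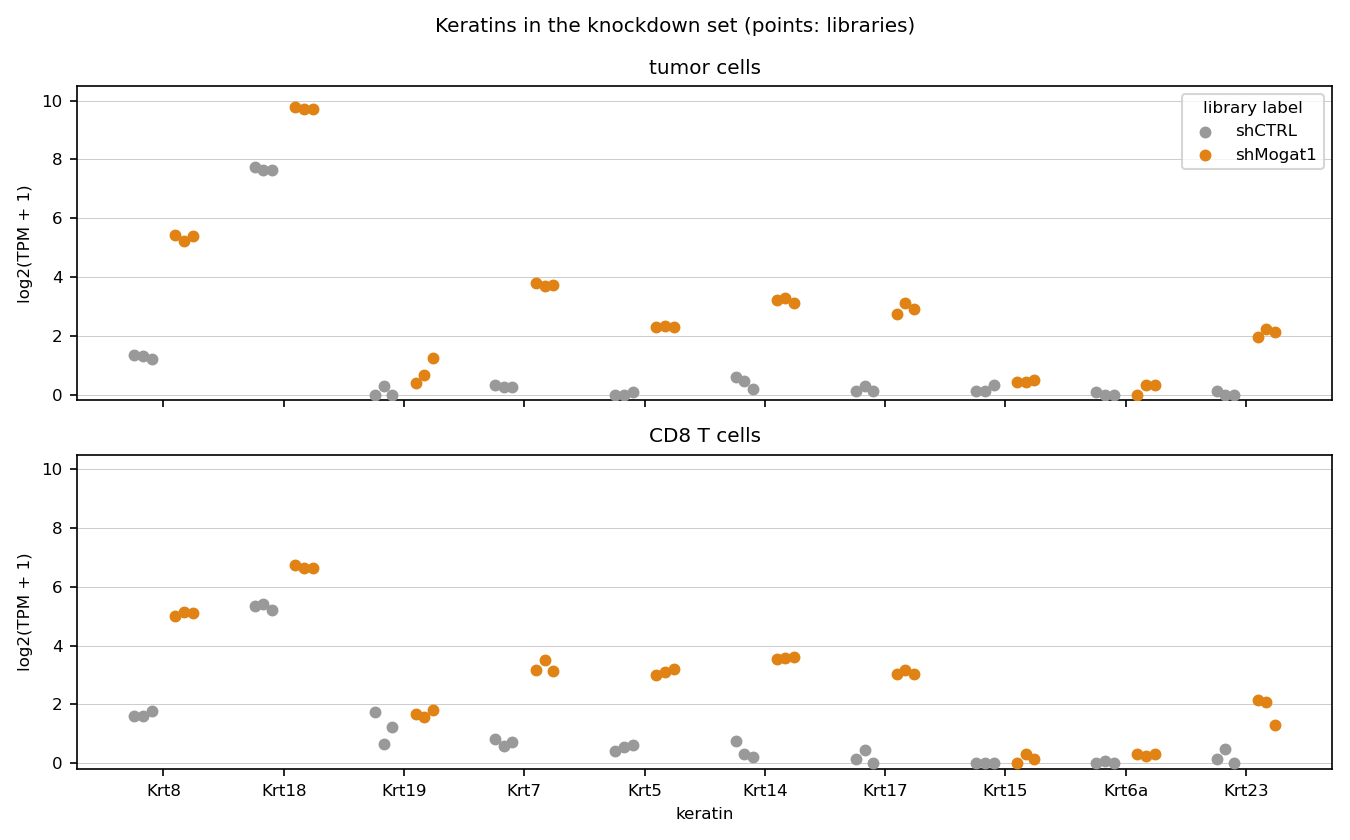
log2(TPM + 1) of the 10 keratins (horizontal axis) in each library of the knockdown set, tumor cells above and CD8 T cells below, with shCTRL in grey and shMogat1 in orange. In tumor cells Krt18 stands above every other keratin in both arms. The shMogat1 points of Krt8, Krt7, Krt5, Krt14, Krt17 and Krt23 lie closer between the cell types than those of Krt18. Of these, Krt5 and Krt14 lie higher in every CD8 library than in any tumor library, and Krt8 and Krt7 lower.

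Other epithelial genes were set beside the keratins, and many of these too reached 1 TPM in no library labelled shCTRL, so that their being called higher follows from the filter. This held for 10 of the 14 tested epithelial markers without keratins, and of the other 4, which passed in both arms, 3 were higher and 1 lower. Among genes that passed through shMogat1 alone, Ehf, an epithelial transcription factor, was higher by 3.09 on the log2 scale (SE 0.11, limma adjusted p = 2.83e-07), and Dsp, the desmosomal linker of keratin, by 2.09 (SE 0.11, adjusted p = 2.54e-06). Desmosome and plakin genes that passed in both arms gave 1 higher and 1 lower of 7, hemidesmosome genes 4 higher and 3 lower of 10, epithelial transcription factors 1 higher and 4 lower of 6, and other intermediate filaments 2 higher and 2 lower of 7. A further 3 desmosome genes and 5 transcription factors, all called higher, passed through shMogat1 alone, and 1 intermediate filament gene, called lower, through shCTRL alone. Trp63 measured 3.64 to 3.91 TPM in shCTRL and 2.42 to 2.68 TPM in shMogat1, and was lower by label (log2 fold change -0.42, SE 0.08, limma adjusted p = 0.00349) where Krt5 and Krt14 were higher. Vim was abundant in both arms, at 8449 to 8561 TPM and 6174 to 6362 TPM (log2 fold change -0.45, SE 0.02, limma adjusted p = 3.51e-07). The Vim to Krt18 ratio was 40.3 to 43.1 and 7.18 to 7.32, beside 1.112 to 1.498 in tumor cells of week 4.

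Marker sums of other cells also differed by label. T cell markers summed to 7.75 to 10.7 TPM in shCTRL and 26.9 to 28.01 TPM in shMogat1 (of 7 tested, 3 passed the filter through shMogat1 alone, and 3 of the other 4 were higher), B and plasma cell markers to 9.26 to 10.4 TPM and 56.9 to 57.7 TPM (of 3 tested, 1 passed through shMogat1 alone, and the other 2 were higher), and macrophage markers to 360 to 387 TPM and 687 to 708 TPM (9 of 9 higher). Fibroblast markers summed to 5107 to 5150 TPM and 2830 to 2918 TPM (4 higher, 3 lower of 8), and endothelial markers to 62.9 to 69.1 TPM and 60.7 to 64.3 TPM (1 higher, 1 lower of 4). The mesothelial sum, nearly all Msln, was 110 to 117 TPM and 139 to 147 TPM, and 5 of its 6 markers stayed under 1 TPM in both arms. Contractile genes that passed in both arms gave 1 higher and 2 lower of 4, and epidermal genes 1 higher of 2. The part of these cells in the keratin differences was not tested.

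A pair of keratins outside the members went apart in this set. Krt76, a type II keratin of oral epithelium, measured 4.54, 4.96 and 6.51 TPM in shCTRL and 40.6, 33.9 and 38.8 TPM in shMogat1 (log2 fold change 2.62, SE 0.12, limma adjusted p = 8.96e-07), and 0.696 TPM or less in the time course. Krt16 measured 30.5, 33.8 and 33.4 TPM in shCTRL and 10.8, 6.84 and 8.37 TPM in shMogat1 (-1.81, SE 0.13, limma adjusted p = 1.35e-05), the only keratin row of this table called lower. In shMogat1 tumor cells Krt76 stood at about the level of Krt8, and in shCTRL tumor cells Krt16 stood second to Krt18.

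**Figure D4:**
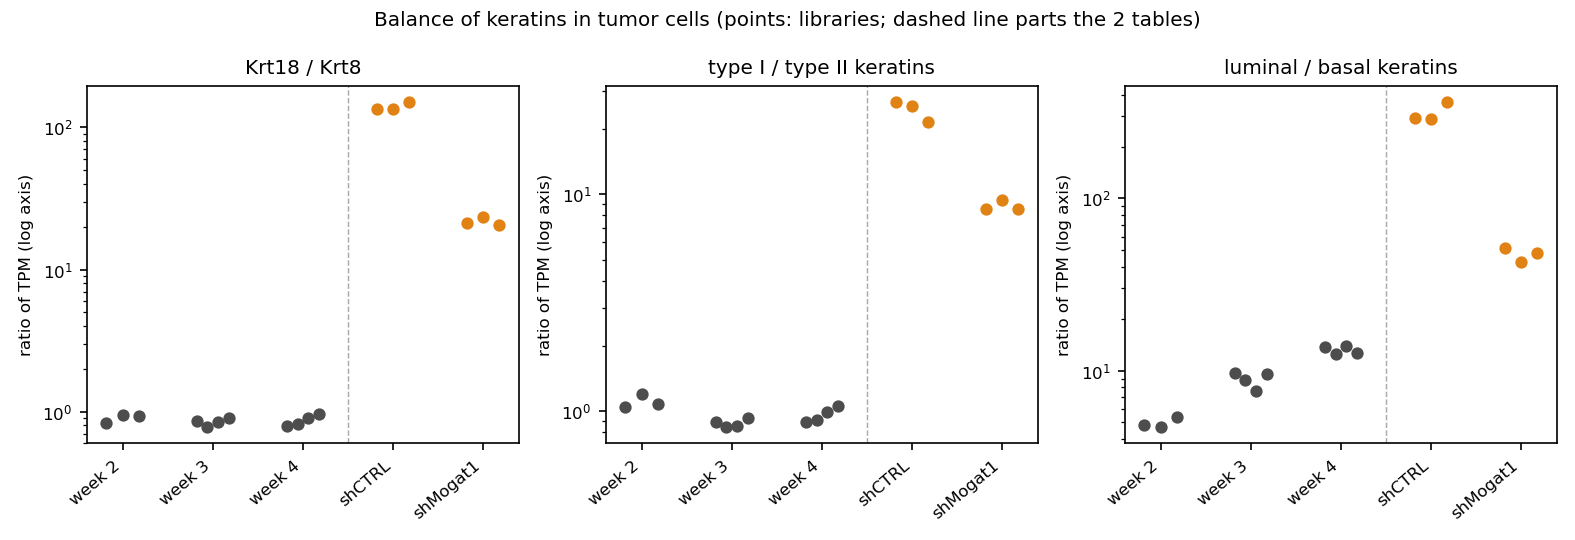
Ratios of TPM (log axes) in each tumor library: Krt18 to Krt8, all type I to all type II keratins, and luminal to basal members. Grey points are the time course and orange points the knockdown set. The Krt18 to Krt8 ratio lies under 1 in all 11 libraries of the time course, at 20.7 to 23.3 in shMogat1 and at 136 to 150 in shCTRL.

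The CD8 T cell tables show how much keratin RNA went with the T cells. In the time course, most members were present at a small share of the tumor level. As group means, Krt8 in CD8 T cells stood at 4.78%, 6.98% and 4.96% of its level in tumor cells of weeks 2, 3 and 4, Krt18 at 4.91%, 6.99% and 4.37%, and Epcam, which T cells lack, at 6.41%, 8.21% and 6.67%. Krt14 (4.99%, 9.58% and 8.28%) and Krt7 (6.08%, 8.03% and 6.22%) lay in the same range. Other epithelial markers did not share 1 level. Cldn3, Cldn7, Esrp1 and Rab25 stood at 2.66% to 7.96% over the weeks. St14 stood at 8.52%, 10.8% and 14.4%, and Cdh1 at 28.2%, 44.3% and 68.5%. The Krt18 to Krt8 ratio, 0.710 to 1.29 over the 9 libraries, was close to that of tumor cells. Krt8 measured 10.7, 13.5 and 28.2 TPM at week 2, 38.2, 53.9 and 28.1 TPM at week 3, and 43.9, 24.7 and 29.6 TPM at week 4, and the weeks overlapped. The T cell markers summed to 5936 to 7084 TPM in these libraries.

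From week 2 to week 4 the CD8 T cells gave 1 member that rose and 1 that fell among the 6 that passed the filter, beside 10.3% of 13350 tested genes that rose and 7.18% that fell. Krt17 measured 0.487, 0.913 and 2.34 TPM at week 2 and 6.32, 2.88 and 5.31 TPM at week 4 (log2 fold change 1.41, SE 0.42, limma adjusted p = 0.0462). Krt19 measured 11.7, 3.00 and 0.871 TPM and then 0.0895, 0 and 0.113 TPM (-2.10, SE 0.59, limma adjusted p = 0.0405). Its week 4 libraries stood on 0 to 2 reads, so that Krt19 passed the filter only through the earlier weeks, where it was high. Krt17 and Krt19 had the direction seen in tumor cells, which for Krt19 the filter favoured, and both calls were fragile. The rise was lost without any 1 of week 2 replicates 1 and 2, week 3 replicate 4 and week 4 replicates 2, 3 and 4, while without week 2 replicate 3 there were 3 that rose. The fall did not pass without any 1 of week 3 replicates 1 and 4 and week 4 replicates 2, 3 and 4. Without any 1 of week 2 replicates 1 and 2 and week 3 replicate 3, Krt19 no longer passed the filter and was not tested. Krt5, under the filter, measured 0.906, 4.14 and 0.688 TPM at week 2, and 0, 0.192 and 0 TPM at week 4, with no overlap, as in tumor cells.

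In the knockdown set the summed keratins of CD8 T cells measured 56.7 ± 3.91 TPM in shCTRL and 193 ± 5.09 TPM in shMogat1, below the 249.8 ± 5.78 TPM and 994 ± 27.4 TPM of tumor cells (SD, n = 3 each). Of 8 members that passed the filter, 7 were higher in the libraries labelled shMogat1 and 0 lower, beside 16.6% of 13742 tested genes that were higher and 26.2% that were lower. As in tumor cells, Krt8 and Krt18 alone among these 7 reached 1 TPM in all 6 libraries. The other 5 passed through the shMogat1 libraries alone, where they were high, so that their being called follows from the filter. Without any 1 of the shMogat1 libraries (replicates 1, 2 and 3) 2 members were called, again because the others no longer passed the filter. Krt8 measured 2.02, 2.07 and 2.45 TPM in shCTRL and 31.5, 34.3 and 33.7 TPM in shMogat1 (log2 fold change 3.43, SE 0.08, limma adjusted p = 1.82e-07). Krt18 measured 39.7, 41.4 and 35.9 TPM and 108, 100.1 and 99.8 TPM (1.37, SE 0.06, limma adjusted p = 2.54e-06). Krt5 measured 0.327, 0.449 and 0.530 TPM and 6.99, 7.65 and 8.20 TPM (2.59, SE 0.11, limma adjusted p = 2.68e-06). The arms did not overlap in any of these. Krt7, Krt14, Krt17 and Krt23 were higher by 2.57, 3.15, 2.88 and 1.64 on the log2 scale (SE 0.14, 0.15, 0.15 and 0.25), with limma adjusted p of 0.00137 or less, and Krt19 did not pass (0.48, SE 0.26, limma adjusted p = 0.167).

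The share of the tumor level was not the same for all members. In the libraries labelled shMogat1, the CD8 mean was 11.9% of the tumor mean for Krt18, 83.6% for Krt8, 71.3% for Krt7, 134% for Krt14 and 192% for Krt5, beside 99.5% for Epcam, 20.6% for Vim and 10.52% for Krt76. In those labelled shCTRL it was 19.2% for Krt18 and 13.7% for Krt16, while Krt8 stood at 2.18 ± 0.23 TPM in CD8 T cells and 1.45 ± 0.13 TPM in tumor cells (SD, n = 3 each) and Epcam at 3.88 and 0.693 TPM. Krt18, Krt16, Krt76 and Vim thus stood at 10.52% to 27.98% of the tumor level in both arms, and Krt8, Krt7, Krt5 and Krt14 at 71.3% or more. In shCTRL tumor cells, however, Krt5, Krt7 and Krt14 averaged 0.0226, 0.217 and 0.341 TPM. These rested on 2, 14 and 24 reads over the arm, so that their shares there carry little weight. Krt79 did not keep to either range, at 20.03% in shCTRL, where it was near 0, and 60.4% in shMogat1. T cell markers summed to 5263 to 5519 TPM in these CD8 libraries, and the source of the keratin RNA in them was not tested.

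**Figure D5:**
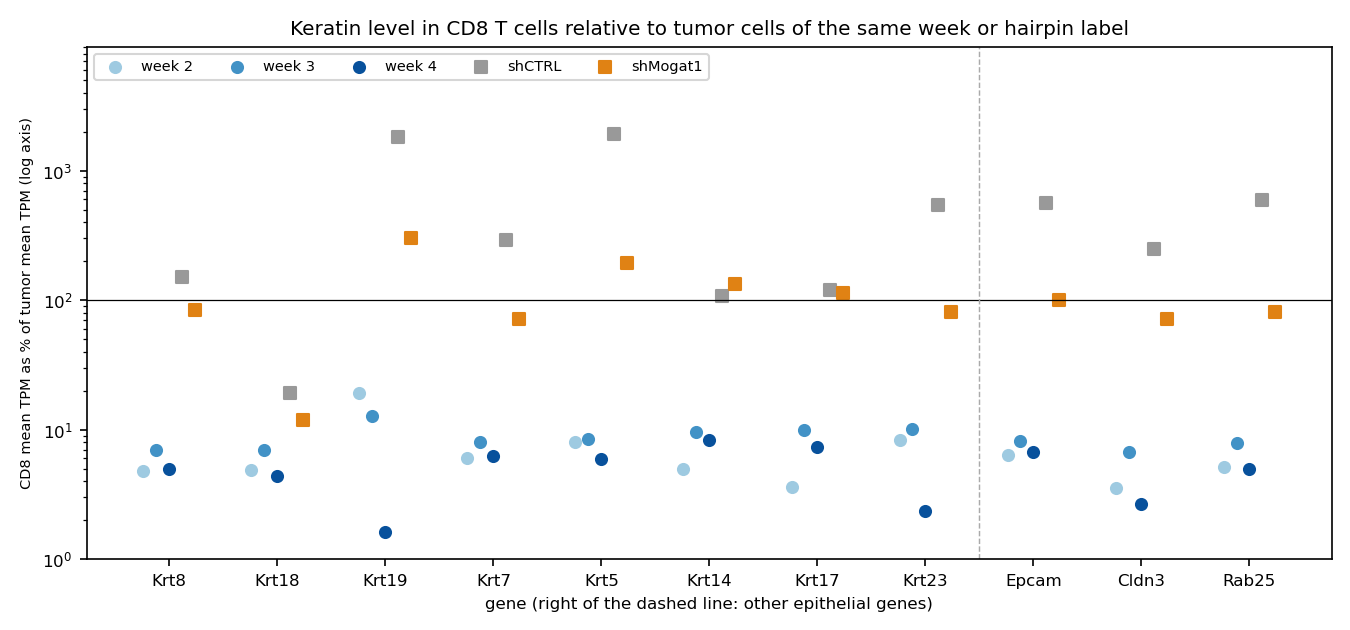
Mean TPM in CD8 T cells as a percent of the mean TPM in tumor cells of the same week or hairpin label (log axis), for 8 keratins and, right of the dashed line, 3 other epithelial genes; Krt15 and Krt6a are left out for their low levels. Circles are the weeks and squares the knockdown set, and the solid line marks equal levels. The weeks lie between 1.62% and 19.1% for the genes shown, while Cdh1, not shown, stood at 28.2% to 68.5%. In the knockdown set only Krt18 lies well below the line. The other genes shown had tumor means of 1.45 TPM or less in shCTRL, so that their shares there rest on low levels.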

How the data were processed

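RNA libraries were made with a stranded mRNA kit from TRIZOL extracts, per the labels' protocols. The 4 deposited tables hold TPM, which the authors computed; HISAT2, Trim Galore, FastQC and the mm10 build are named in the submitters' processing notes, and the read counter and annotation are not given in the sources used here. Of the 33681 rows of a table, 27 whose symbol had turned into a date were dropped. Each table was fitted on its own with limma 3.58.1 in R 4.3.3 (lmFit, eBayes with trend) on log2(TPM + 1), with all its groups in 1 fit, for genes at 1 TPM or more in at least 3 libraries, and p-values were adjusted over all tested genes by the Benjamini-Hochberg method. The test was checked on simulated data. Read numbers, recovered for 9 of 10 members and 75.2% of 23107 genes tried from the steps between deposited TPM values (within 0.02 of whole numbers), entered no test of conditions. Alternatives were pseudocounts of 0.1 and 5, no filter, a filter at 5 TPM, median-of-ratios and quantile scaling, array weights, a replicate block, the 2 weeks compared alone, and each library left out. Members and gene lists were chosen with earlier results of these data known. Named were all members, other keratins with a tumor group mean of 10 TPM or more, the 5 genes most like 4 members (1 result is not reported here), Vim, Epcam, Cd8a and Trp63, and examples among the genes of each of 13 lists with the largest called changes. Depth is known from recovered reads only, and intervals cover counting error with each read taken as an independent count. Python 3.11.15 served for tables and plots.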

Additional observations from a re-analysis of the deposited data

How the results depend on the processing

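In tumor cells from week 2 to week 4 the counts of members higher and lower stayed at 4 and 4 under every alternative except 3, where 3 were lower: Krt6a missed the threshold with array weights, and was not tested with a filter at 5 TPM or with only the 2 weeks compared. Of 197 alternative values of single members 196 kept their side of the threshold. The step from week 2 to week 3 was less stable. Its 2 members higher became 0 under median-of-ratios rescaling, 0 with array weights, 1 with only the 2 weeks compared, and 0 to 3 with 1 library left out, and its 2 members lower became 1 without a filter, 0 with array weights, 0 with only the 2 weeks compared, and 0 to 3 with 1 library left out. From week 3 to week 4, 2 higher became 4 with array weights, and 2 lower became 4 with array weights, 4 with only the 2 weeks compared, and 2 to 4 with 1 library left out. In the knockdown set, leaving out 1 library gave 2 to 7 members higher in tumor cells and 2 to 8 in CD8 T cells, the low values from fewer genes passing the filter. In CD8 T cells from week 2 to week 4, 1 higher and 1 lower became 0 and 0 without a filter, and 0 to 3 and 0 to 1 with 1 library left out. Over all tested genes, the 3560 calls from week 2 to week 3 became 1637 with only the 2 weeks compared and 1371 to 5751 with 1 library left out, the 2026 from week 3 to week 4 became 4614 with array weights, 3857 with only the 2 weeks compared and 1251 to 3580 with 1 library left out, and the 2335 in CD8 T cells became 1422 with the block described next and 928 to 3115 with 1 library left out. Other causes were not tested.

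Within a cell type and set, same-numbered libraries reached no higher correlations of their deviations from group means than differently numbered ones. In tumor cells over time they correlated between -0.263 and 0.233, beside -0.357 to 0.324 for other numbers, and in the knockdown set between -0.036 and 0.023. In CD8 T cells they correlated between -0.241 and 0.426, beside -0.435 to 0.454, and at 0.033 and 0.046. Groups this small cannot exclude a pairing, and one between tumor and CD8 T cell libraries was not tested. With the number as a replicate block, 1 member was higher and 1 lower from week 2 to week 3 in tumor cells, and 0 and 0 from week 2 to week 4 in CD8 T cells, and it changed no other count of members. Depth limits Krt15, Krt6a and, in the libraries labelled shCTRL, every member but Krt18. It also limits Krt19 in tumor cells labelled shMogat1 (6 to 26 reads a library) and several members in CD8 T cells of the time course. At week 4 of these, Krt19 stood on 0 to 2, Krt5 on 0 to 6 and Krt23 on 4 to 36 reads.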

Other observations

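Krt83, a hair keratin outside the members that was singled out after its values were seen, had, by group mean, the highest level of all keratins but Krt8 in CD8 T cells of week 4. In CD8 T cells it measured 0.968, 3.31 and 10.95 TPM at week 2, 16.1, 8.84 and 10.4 TPM at week 3, and 19.6, 46.0 and 25.01 TPM at week 4, and it rose by 2.65 on the log2 scale from week 2 to week 4 (SE 0.58, limma adjusted p = 0.0168). In tumor cells its group means were 0.310 to 0.810 TPM over the weeks, so that, unlike the 10 members, it stood higher in the CD8 T cells than in the tumor cells of every week. In the knockdown set Krt83 measured 3.10, 3.53 and 3.55 TPM in CD8 T cells labelled shCTRL and 7.55, 4.23 and 6.11 TPM in those labelled shMogat1 (log2 fold change 0.64, SE 0.17, limma adjusted p = 0.0191).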
